A study of Saccharomyces cerevisiae with 4 samples.

Results

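The genes described here make amino acids in budding yeast and are known targets of Gcn4, the transcription factor that switches on amino acid synthesis when amino acids run short. They are 45 genes, chosen by their systematic names from the 6692 genes of the count table: 44 enzyme genes of 6 pathways (8 for arginine, 6 for histidine, 7 for lysine, 10 for leucine, isoleucine and valine, 8 for tryptophan and the aromatic precursors, 5 for threonine) and *GCN4* itself. All 45 were found. Their levels were compared in 2 *sis2Δ* cultures and 2 wild-type cultures. The *sis2Δ* strain carries *sis2_delta::kanMX* in BY4741 and comes from the haploid *MATa* deletion collection, so it stands for a single deletion strain. The wild type is BY4741 itself, and both strains carry *his3Δ1*, *leu2Δ0*, *met15Δ0* and *ura3Δ0*. Every culture was grown in 15 ml of synthetic complete medium with 2% glucose to mid-log phase, and polyadenylated RNA was sequenced as stranded libraries, named A and B in each strain. *SIS2* encodes a subunit of the enzyme that decarboxylates phosphopantothenoylcysteine in coenzyme A synthesis and is also a regulatory subunit of the Ppz1 phosphatase. The study sequenced these cultures to learn what follows from the loss of *SIS2*.

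When uncharged tRNA accumulates, the kinase Gcn2 phosphorylates the initiation factor eIF2. Translation then passes the short open reading frames ahead of the *GCN4* coding sequence, and more Gcn4 protein is made. *GCN4* is thus controlled largely at translation, which mRNA levels do not show. Gcn4 binds the letters TGACTCA in promoters, while pathway regulators such as Leu3 and Lys14 act on single pathways. Leu3 responds to the leucine intermediate α-isopropylmalate. In rich or complete medium most of these genes are expressed at a basal level. Because BY4741 lacks *LEU2*, both strains take leucine from the medium, and *his3Δ1* has the same consequence for histidine.

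The promoters of the genes that lay furthest above the wild type, *LEU1* and *BAT1*, are shown with those of *LEU4*, which works in the same pathway, and *HIS4*, a much studied Gcn4 target. Each window runs from 250 bases before to 50 bases after the first base of the start codon in the RefSeq annotation of R64, the build of the deposited counts. Capitals mark TGACTC, the core of the Gcn4 site, on either strand, and the palindrome that Leu3 binds, CCG and CGG with 4 bases between them. TGACTC is also the core of sites for Bas1, so a match does not tell these factors apart.
*LEU1* (chrVII:478603-478902, minus strand): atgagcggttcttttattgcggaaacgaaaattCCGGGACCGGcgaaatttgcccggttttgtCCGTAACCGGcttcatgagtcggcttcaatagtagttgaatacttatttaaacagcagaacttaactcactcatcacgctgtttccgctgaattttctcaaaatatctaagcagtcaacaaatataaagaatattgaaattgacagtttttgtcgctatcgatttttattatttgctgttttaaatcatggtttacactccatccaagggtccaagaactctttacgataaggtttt
*BAT1* (chrVIII:517282-517581, plus strand): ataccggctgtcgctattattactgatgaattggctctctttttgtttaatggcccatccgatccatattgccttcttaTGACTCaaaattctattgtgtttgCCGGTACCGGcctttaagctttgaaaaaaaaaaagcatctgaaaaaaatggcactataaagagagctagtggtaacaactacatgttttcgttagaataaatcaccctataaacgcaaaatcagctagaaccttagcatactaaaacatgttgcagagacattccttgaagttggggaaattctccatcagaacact
*LEU4* (chrXIV:426705-427004, minus strand): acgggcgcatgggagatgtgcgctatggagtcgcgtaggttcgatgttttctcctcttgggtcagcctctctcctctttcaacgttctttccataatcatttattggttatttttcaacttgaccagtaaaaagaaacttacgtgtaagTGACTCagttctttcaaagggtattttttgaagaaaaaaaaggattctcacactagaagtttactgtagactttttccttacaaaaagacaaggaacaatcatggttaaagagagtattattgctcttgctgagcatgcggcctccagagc
*HIS4* (chrIII:68284-68583, minus strand): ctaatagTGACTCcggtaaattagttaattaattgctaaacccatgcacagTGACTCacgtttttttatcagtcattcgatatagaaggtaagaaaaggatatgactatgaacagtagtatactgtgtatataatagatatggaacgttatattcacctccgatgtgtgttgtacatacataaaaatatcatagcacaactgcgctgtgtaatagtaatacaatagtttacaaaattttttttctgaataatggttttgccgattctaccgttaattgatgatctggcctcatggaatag

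The *LEU1* window held 2 Leu3 matches, the first bases of which lie at -217 and -187 from the start codon, and no TGACTC. The *BAT1* window held 1 TGACTC at -171 and 1 Leu3 match at -147. Of all 45 genes, 25 (55.6%) had TGACTC on either strand within such a window, against 479 (7.98%) of the 6001 nuclear protein-coding genes with a full window. The longer TGACTCA was found in 19 (42.2%) of the 45 and in 164 (2.73%) of all windows, and the Leu3 letters in 3 (*LEU1*, *BAT1* and, inside the coding sequence, *HOM6*) and in 87 (1.45%) of all windows. These genes were put on the list as Gcn4 targets, so the share of TGACTC describes the list and is no test of it. By pathway, TGACTC was found in 4 of 8 arginine windows, 5 of 6 histidine windows, 3 of 7 lysine windows, 6 of 10 leucine, isoleucine and valine windows, 4 of 8 aromatic windows and 3 of 5 threonine windows, and not in that of *GCN4*. With 500 bases upstream and no coding bases, a window chosen after seeing the data, TGACTC was found for 33 of the 45, *LEU1* and *LEU9* among them, against 12.7% of all genes. The Leu3 letters were then found for 7 (*LEU1*, *LEU9*, *ILV2*, *ILV5*, *BAT1*, *BAT2* and *HOM2*), against 3.28% of all genes, and these include *LEU9*, which lay below the wild type. The Lys14 letters, TCC and GGA with 3 bases between them, were in 4 of the shorter windows (*LYS1*, *LYS9*, *LYS12* and *LEU9*), against 3.4% of all windows.

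The counts on genes summed to between 19001619 and 28069619 per library, and each of the 45 genes had between 243 and 26950 counts in every library. Levels are given as CPM, counts relative to the library total, which was scaled between libraries by the trimmed mean of M-values (TMM). At this depth a count of 3 corresponds to at most 0.159 CPM. The quasi-likelihood test of edgeR was run between the strains over the 5959 genes that reached 0.5 CPM in 2 or more libraries, and adjusted p-values are Benjamini-Hochberg values over all of them (SE, standard error of the log2 fold change). The deleted gene checked the labels: *SIS2* had 6 and 9 counts in *sis2Δ* A and B, against 3991 and 2208 counts in wild-type A and B. *URA3* and *MET17*, the gene that *met15Δ0* removes, had 0 counts in every library, and *LEU2* had 1 count in *sis2Δ* library B and 0 in the rest. No exact permutation test of 2 against 2 libraries can reach 0.05 for one gene, so the calls draw on the variance that edgeR shares between genes.

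The libraries of the *sis2Δ* strain differed from each other in these genes. *sis2Δ* library A lay below *sis2Δ* library B for 42 of the 45 genes (93.3%), with a median log2 ratio of -0.22, whereas A lay below B for 52.2% of all tested genes, with a median of -0.01. The TMM factors, 1.073 for *sis2Δ* A and 0.9663 for *sis2Δ* B, lower A relative to B equally in every gene. With library size alone fewer of the 45 would lie lower in A, and their median would be smaller in size. The gap between their median and that of all tested genes would stay the same. Among the 2249 tested genes with a wild-type mean of at least 100 CPM the share was 62.9% and the median -0.07. In the wild type, library A lay below library B for 18 of the 45 genes (40.0%), with a median log2 ratio of 0.09. In sum, the 45 genes took 13816 and 16224 CPM in *sis2Δ* A and B, against 15250 and 14339 CPM in wild-type A and B. With TMM scaling the wild-type totals thus lay between the *sis2Δ* totals. With library size alone each *sis2Δ* total would lie above each wild-type total, that of *sis2Δ* A only slightly above that of wild-type A. Without *sis2Δ* replicate A the median log2 fold change of the 45 genes was 0.10, and without *sis2Δ* replicate B it was -0.14. The part of this spread in each gene's comparison below was not tested beyond these values.

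**Figure D1:**
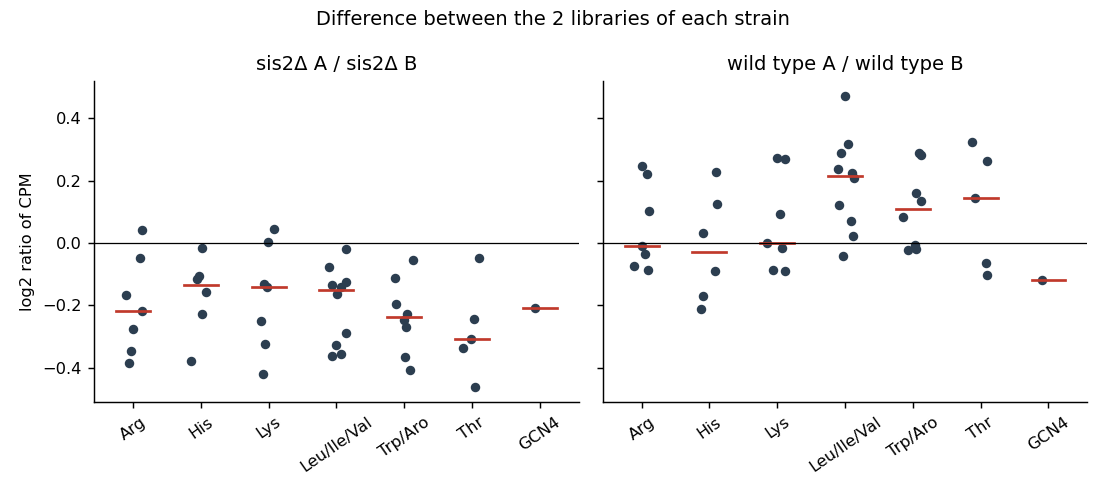
Log2 ratio of CPM between libraries A and B of *sis2Δ* (left) and of the wild type (right) for 44 of the 45 genes, by pathway, with the median of the points drawn for each pathway as a red bar. In *sis2Δ* nearly all points lie below 0 (41 of 44), while in the wild type they lie on both sides (18 below 0).

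None of the 45 genes passed the threshold between the strains. Over all tested genes 362 (6.07%) had an adjusted p under 0.05, 200 lower and 162 higher in *sis2Δ* (127 and 188 when scaled by library size alone), but 0 of the 45 did, the smallest adjusted p being 0.0642 for *LEU1* (edgeR). At an unadjusted p under 0.05 there were 7 of the 45 (15.6%), against 21.0% of all tested genes. Most of the 45 are well expressed. Among the 2249 tested genes with a wild-type mean of at least 100 CPM, 68 were called lower and 37 higher, and 17.6% had an unadjusted p under 0.05. The 7 of the 45 were *LEU1*, *BAT1* and *LYS4*, which lay above the wild type, and *ARG3*, *LYS12*, *LYS20* and *LEU9*, which lay below it. The other tools gave 0 calls among the 45 with limma-voom, against 5.92% of all tested genes, and 2 with DESeq2, *LEU1* and *BAT1*, against 6.86%. In edgeR's test, median-ratio size factors gave 1 (*LEU1*), against 6.93%, and library size alone gave 2 (*LEU1* and *BAT1*), against 5.29%. Without the CPM minimum there were 0, against 4.57%, and with a minimum of 10 counts in every library 0, against 6.02%. With the replicate letter as a block there were 6, against 13.2%, although the letters are not known to pair the cultures. The strains were separated, with both libraries of one above both of the other, for 18 of the 45 genes (40.0%), against 53.1% of all tested genes and 50.6% of those with a wild-type mean of at least 100 CPM. Of the 18 separated genes, 10 lay lower in *sis2Δ*, against 28.6% of all tested genes, and 8 higher, against 24.5%.

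The fold changes were small, and their intervals bounded them. The log2 fold changes of the 45 genes ranged from -0.49 to 0.56, with 24 below and 21 above 0 and a median of -0.02, against 3038 below, 2921 above and a median of -0.0050 for all tested genes. With library size alone these turned to 20 below, 25 above and a median of 0.03, against a median of 0.05 for all tested genes. The median size of the log2 fold change, without its sign, was 0.141 for the 45 genes and 0.156 for all tested genes. It was 0.135 for tested genes with a wild-type mean of at least 100 CPM, a level that most of the 45 reached. All 45 intervals at 95% lay within a doubling or halving, from -0.81 at the lowest to 0.91 at the highest on the log2 scale. For 36 genes the interval lay within a 1.5-fold change in either direction, and the other 9 were *ARG3*, *HIS4*, *LYS4*, *LYS12*, *LYS20*, *LEU1*, *LEU4*, *BAT1* and *HOM6*. These intervals are not adjusted for the number of genes.

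**Figure D2:**
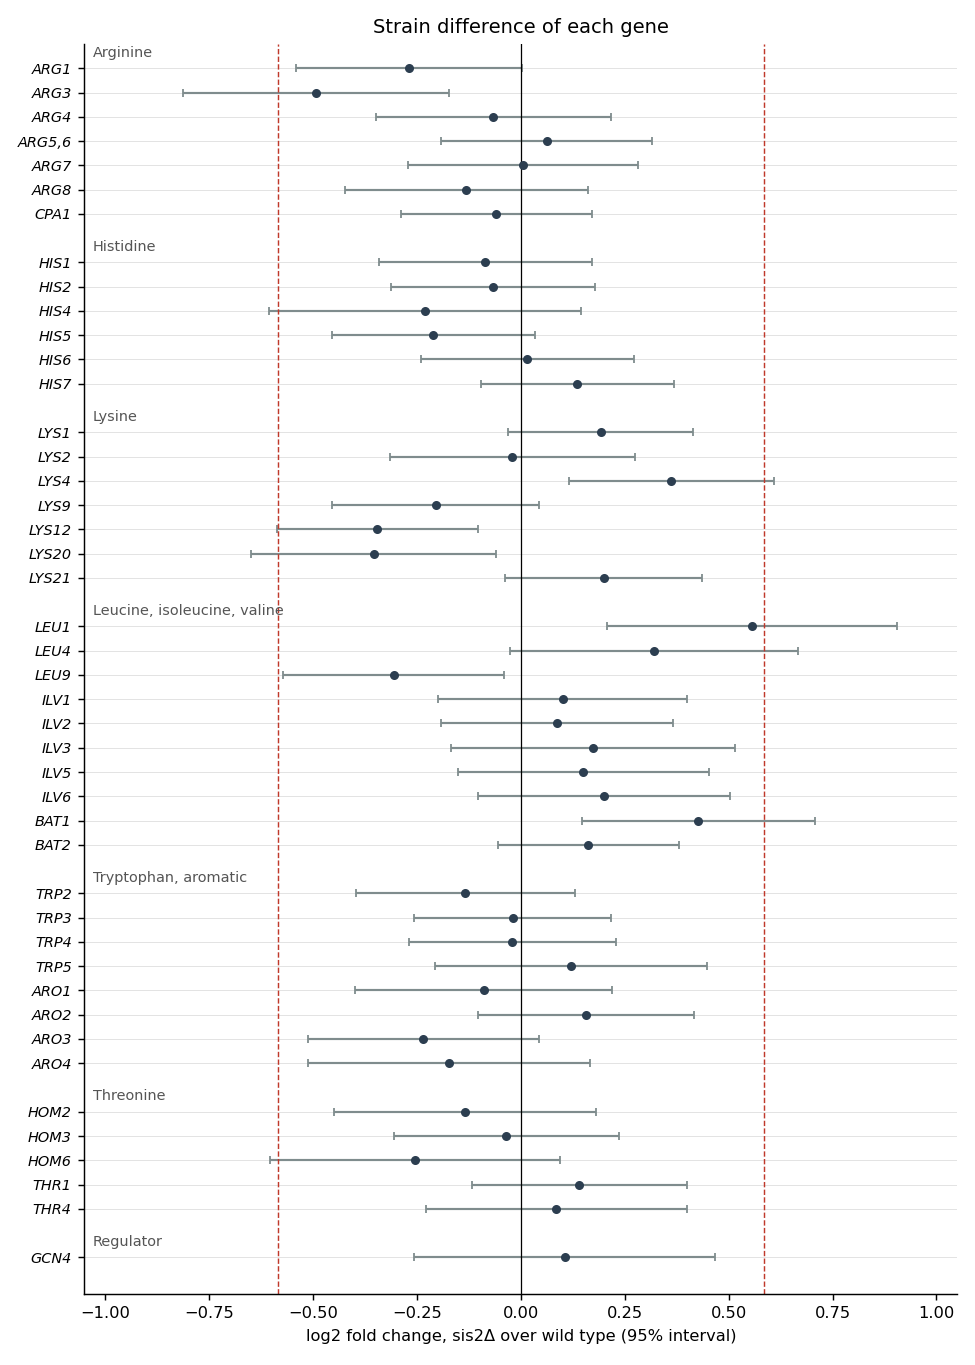
Log2 fold change of *sis2Δ* over wild type for 44 of the 45 genes by pathway, each with its 95% interval from edgeR's fit. Dashed lines mark a 1.5-fold change in either direction, which 35 of the 44 intervals do not reach.

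*GCN4* (YEL009C, chrV:138918-139763, minus strand), the regulator, had 951 and 1098 CPM in *sis2Δ* A and B, against 913 and 991 CPM in wild-type A and B. The strains overlapped, as *sis2Δ* A lay between the wild-type libraries. The log2 fold change was 0.11 (SE 0.17, 95% interval -0.26 to 0.47, edgeR adjusted p = 0.759). Per kilobase of coding sequence, the scale on which levels can be set side by side, *GCN4* had the highest level of the 45 genes, 1211 ± 123 CPM per kb in *sis2Δ* and 1126 ± 65.1 CPM per kb in the wild type (SD, n = 2 each). Next in the wild type came *ARO4* with 560 ± 100 CPM per kb in *sis2Δ* and 631 ± 6.89 in the wild type, *HOM6* with 467 ± 105 in *sis2Δ* and 557 ± 28.1 in the wild type, and *HOM2* with 493 ± 74.2 in *sis2Δ* and 542 ± 17.2 in the wild type (SD, n = 2 each). In the wild type the means of *HOM6* and *HOM2* differed by less than the SD of *HOM6*. The lowest levels were those of *ARG8*, 27.0 ± 4.57 CPM per kb in *sis2Δ* and 29.6 ± 1.27 in the wild type, and *ARG3*, 11.5 ± 0.228 in *sis2Δ* and 16.0 ± 1.93 in the wild type (SD, n = 2 each).

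The leucine, isoleucine and valine genes lay mostly above the wild type, though none passed the test. Of the 10 genes, 9 had a log2 fold change above 0 (7 without *sis2Δ* replicate B, 8 without wild-type replicate B). The median was 0.17, the only pathway median above 0 in the main fit. Without *sis2Δ* replicate A the medians of all the other pathways were above 0 too. They then ran from 0.0061 for histidine to 0.14 for lysine, against 0.26 for these 10 genes. Together the 10 genes took 4317 and 4971 CPM in *sis2Δ* A and B, against 4116 and 3612 CPM in wild-type A and B. The strains were thus separated in this sum, but on the TMM scale this rested on *LEU1*. That gene alone took 975 and 1074 CPM in *sis2Δ* A and B, against 751 and 643 CPM in wild-type A and B. Without *LEU1* the sum of *sis2Δ* A would lie just below that of wild-type A. The median stayed above 0 with each library left out, between 0.08 and 0.28. In the wild type, library A lay above library B for 9 of these 10 genes, with a median log2 ratio of 0.22, which is of the size of the strain difference.

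*LEU1* (YGL009C, chrVII:476313-478652, minus strand), the isomerase that follows isopropylmalate synthase in leucine synthesis, had 975 and 1074 CPM in *sis2Δ* A and B, against 751 and 643 CPM in wild-type A and B. The strains did not overlap. Its log2 fold change was 0.56 (SE 0.16, 95% interval 0.21 to 0.91, edgeR adjusted p = 0.0642), a fold of 1.47, and between 0.47 and 0.67 with each library left out. *LEU1* was called by DESeq2 (adjusted p = 0.000337) and with median-ratio size factors or library size alone in edgeR's test (adjusted p = 0.0394 and 0.00648), but not by limma-voom (adjusted p = 0.0622). *BAT1* (YHR208W, chrVIII:517532-518713, plus strand), the mitochondrial branched-chain aminotransferase, had 595 and 628 CPM in *sis2Δ* A and B, against 458 and 451 CPM in wild-type A and B. The groups did not overlap, and the libraries of each strain lay close together. The log2 fold change was 0.43 (SE 0.13, 95% interval 0.15 to 0.71, edgeR adjusted p = 0.0759), and between 0.39 and 0.48 with each library left out. DESeq2 called *BAT1* (adjusted p = 0.00392), as did edgeR's test with library size alone (adjusted p = 0.0267).

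Isopropylmalate synthase, which condenses acetyl-CoA with α-ketoisovalerate at the start of the leucine branch, has the isoenzymes Leu4 and Leu9. *LEU4* (YNL104C, chrXIV:424895-426754, minus strand) had 531 and 683 CPM in *sis2Δ* A and B, against 534 and 437 CPM in wild-type A and B, so that *sis2Δ* A lay between the wild-type libraries. Its log2 fold change was 0.32 (SE 0.16, edgeR adjusted p = 0.275). *LEU9* (YOR108W, chrXV:523027-524841, plus strand) was the exception among the 10 genes, with 128 and 161 CPM in *sis2Δ* A and B, against 187 and 171 CPM in wild-type A and B. Its libraries were separated in the direction opposite to those of *LEU1*. The log2 fold change was -0.31 (SE 0.12, edgeR adjusted p = 0.177), -0.48 without *sis2Δ* replicate B and -0.14 without *sis2Δ* replicate A.

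*BAT2* (YJR148W), the cytosolic aminotransferase, had 136 and 138 CPM in *sis2Δ* A and B, against 120 and 124 CPM in wild-type A and B. It was separated as well, by a smaller margin than *BAT1*, with a log2 fold change of 0.16 (SE 0.10, edgeR adjusted p = 0.374). In the other 5 genes the strains overlapped. These were *ILV1*, threonine deaminase, *ILV2* and *ILV6*, the catalytic and regulatory subunits of acetolactate synthase, *ILV5*, the reductoisomerase, and *ILV3*, the dihydroxyacid dehydratase. Their log2 fold changes lay between 0.09 for *ILV2* and 0.20 for *ILV6*, with adjusted p-values from 0.439 to 0.742 (edgeR).

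**Figure D3:**
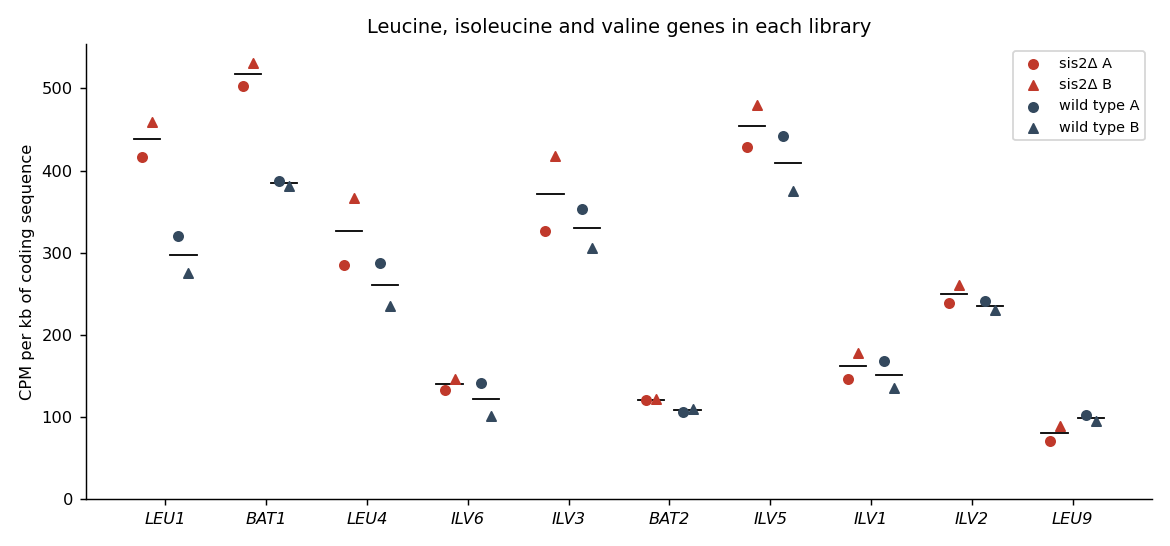
CPM per kb of coding sequence of the 10 leucine, isoleucine and valine genes in each library, with *sis2Δ* left of the wild type for each gene and the strain mean as a bar; genes are ordered by log2 fold change. The strains are separated upwards in *LEU1*, *BAT1* and *BAT2*, downwards in *LEU9*, and overlap in the other 6 genes.

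The lysine genes lay on both sides of the wild type, and none passed the test. Of the 7 genes, 4 had a log2 fold change below 0 and 3 above, with a median of -0.02 (3 below, 4 above and 0.03 with library size alone), and 6 of the 7 were separated between the strains, 3 in each direction, against 53.1% of all tested genes. The pathway begins with homocitrate synthase, which condenses acetyl-CoA with α-ketoglutarate and has the isoenzymes Lys20 and Lys21. *LYS20* (YDL182W, chrIV:133437-134723, plus strand) had 174 and 232 CPM in *sis2Δ* A and B, against 268 and 251 CPM in wild-type A and B. Both *sis2Δ* libraries lay below the wild type, A further than B. The log2 fold change was -0.35 (SE 0.14, edgeR adjusted p = 0.157), -0.58 without *sis2Δ* replicate B and -0.15 without *sis2Δ* replicate A. *LYS21* (YDL131W, chrIV:227393-228715, plus strand) had 246 and 270 CPM in *sis2Δ* A and B, against 223 and 226 CPM in wild-type A and B. Its libraries were separated the other way, with a log2 fold change of 0.20 (SE 0.11, edgeR adjusted p = 0.317).

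*LYS4* (YDR234W, chrIV:931129-933210, plus strand), homoaconitase, had 151 CPM in each *sis2Δ* library, against 128 and 106 CPM in wild-type A and B. The spread here was in the wild type. The log2 fold change was 0.36 (SE 0.11, 95% interval 0.12 to 0.61, edgeR adjusted p = 0.0875), and between 0.26 and 0.51 with each library left out. *LYS12* (YIL094C, chrIX:186517-187632, minus strand), homoisocitrate dehydrogenase, which acts at the following step, had 224 and 247 CPM in *sis2Δ* A and B, against 299 CPM in each wild-type library. It lay below the wild type where *LYS4* lay above it, with a log2 fold change of -0.35 (SE 0.11, 95% interval -0.59 to -0.10, edgeR adjusted p = 0.0958). Of the remaining genes, *LYS2*, α-aminoadipate reductase, had a log2 fold change of -0.02 and overlapped between the strains. The saccharopine dehydrogenase genes were separated in opposite directions, *LYS9* with -0.20 and *LYS1* with 0.19 (edgeR adjusted p = 0.329 and 0.307).

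The 4 isoenzyme pairs were compared within each library, as the ratio of their levels per kb. The ratio of *LEU9* to *LEU4* was 0.248 and 0.242 in *sis2Δ* A and B, against 0.358 and 0.402 in wild-type A and B. It was lower in both *sis2Δ* libraries, by a log2 difference of -0.63, although *LEU4* alone overlapped between the strains. The ratio of *LYS21* to *LYS20* was 1.38 and 1.13 in *sis2Δ* A and B, against 0.811 and 0.876 in wild-type A and B, so that *LYS21* had the higher level in *sis2Δ* and *LYS20* in the wild type. The ratio of *BAT2* to *BAT1* was 0.238 and 0.229 in *sis2Δ* A and B, against 0.274 and 0.287 in wild-type A and B. For *ARO4* to *ARO3* it was 1.22 and 1.45 in *sis2Δ* A and B, against 1.28 in each wild-type library, and the strains overlapped. The first 3 ratios were separated between the strains, but separation was common, as 53.1% of all tested genes were separated by their own levels. It is the most extreme outcome that an exact permutation test of 2 against 2 libraries can meet. Such a test cannot reach 0.05. How often ratios of other gene pairs are separated was not tested, so the count of 3 is no evidence by itself.

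The coding sequences of *LYS20* and *LYS21* are 91.9% identical over 1278 aligned bases, with an identical stretch of 278 bases, and 24.4% and 23.7% of their 100-base windows, the length of a read, occur elsewhere in the genome. How the authors counted reads that map to several places is not given in the sources used here, so the levels of these genes are uncertain. For the other 43 genes none of these windows occurs elsewhere. *LEU4* and *LEU9* are 81.2% identical, with no identical stretch over 41 bases.

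**Figure D4:**
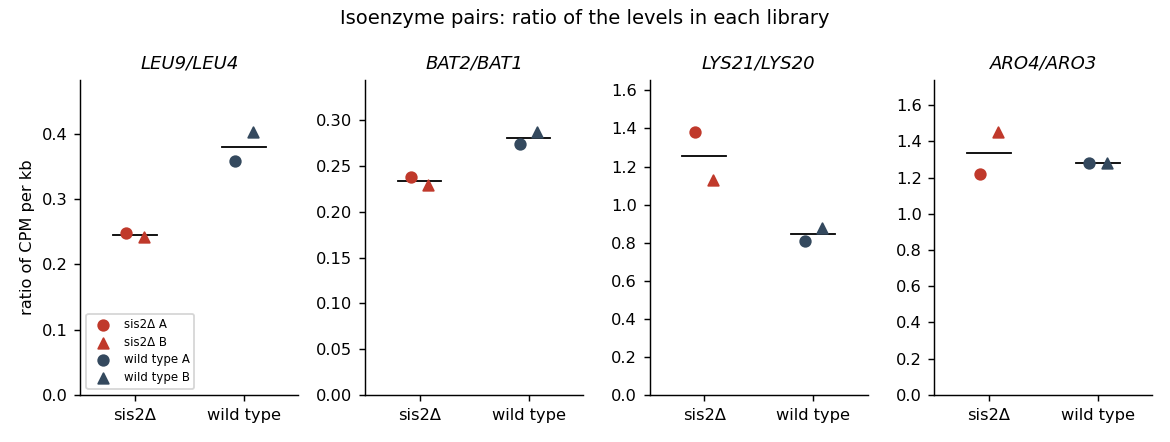
Ratio of CPM per kb between the genes of 4 isoenzyme pairs in each library, *sis2Δ* left and wild type right, with the mean of each strain as a bar. *LEU9*/*LEU4* and *BAT2*/*BAT1* are lower and *LYS21*/*LYS20* is higher in both *sis2Δ* libraries, and *ARO4*/*ARO3* overlaps.

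Of the 8 arginine genes, 6 had a log2 fold change below 0, with a median of -0.09. *ARG3* (YJL088W, chrX:268799-269815, plus strand), ornithine carbamoyltransferase, was the furthest from the wild type, with 11.8 and 11.5 CPM in *sis2Δ* A and B, against 17.7 and 14.9 CPM in wild-type A and B. The strains were separated, and *ARG3* is also the gene of the 45 with the lowest level. The log2 fold change was -0.49 (SE 0.15, 95% interval -0.81 to -0.17, edgeR adjusted p = 0.0736), and between -0.58 and -0.36 with each library left out. *ARG1*, argininosuccinate synthetase, had a log2 fold change of -0.27 (SE 0.12, edgeR adjusted p = 0.24). At the other end, *ARG5,6*, which encodes acetylglutamate kinase and the reductase after it, had 115 and 134 CPM in *sis2Δ* A and B, against 128 and 110 CPM in wild-type A and B. The strains overlapped, with a log2 fold change of 0.06 (edgeR adjusted p = 0.803). *ARG4*, argininosuccinate lyase, *ARG7*, ornithine acetyltransferase, *ARG8*, acetylornithine aminotransferase, and *CPA1*, the small subunit of carbamoyl phosphate synthetase, had log2 fold changes between -0.13 for *ARG8* and 0.0046 for *ARG7*.

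The 6 histidine genes had a median log2 fold change of -0.08. *HIS4* (YCL030C, chrIII:65934-68333, minus strand), which encodes an enzyme for several steps of the pathway and has 2 TGACTC matches in its promoter, had 653 and 850 CPM in *sis2Δ* A and B, against 952 and 813 CPM in wild-type A and B. *sis2Δ* A was the lowest and *sis2Δ* B lay between the wild-type libraries, so the strains overlapped. The log2 fold change was -0.23 (SE 0.17, 95% interval -0.61 to 0.14, edgeR adjusted p = 0.471), the largest standard error of the 45 genes. *HIS7*, imidazole glycerol phosphate synthase, had 176 and 191 CPM in *sis2Δ* A and B, against 174 and 160 CPM in wild-type A and B. It was separated upwards by a small margin, with a log2 fold change of 0.14 (edgeR adjusted p = 0.495). *HIS5*, histidinol-phosphate aminotransferase, was separated downwards with -0.21 (adjusted p = 0.307). *HIS1*, which catalyses the entry step, *HIS2*, histidinol phosphatase, and *HIS6*, an isomerase, overlapped, with log2 fold changes of -0.09, -0.07 and 0.02. *HIS3*, which carries *his3Δ1* in both strains and is not among the 45, had a log2 fold change of 0.07 (edgeR adjusted p = 0.777).

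The 8 genes of the shikimate and tryptophan pathways had a median log2 fold change of -0.05. The pathway opens with the DAHP synthases Aro3 and Aro4, which are inhibited by phenylalanine and tyrosine. *ARO3* (YDR035W) had 448 and 483 CPM in *sis2Δ* A and B, against 544 and 551 CPM in wild-type A and B. Both *sis2Δ* libraries lay below the wild type, with a log2 fold change of -0.23 (SE 0.13, edgeR adjusted p = 0.317). *ARO4* (YBR249C) had 544 and 702 CPM in *sis2Δ* A and B, against 697 and 708 CPM in wild-type A and B. Only *sis2Δ* A was low, and the log2 fold change was -0.17 (SE 0.16, edgeR adjusted p = 0.557) was 0.01 without that library. *ARO2*, chorismate synthase, was highest of the 8 by its log2 fold change was 0.16 (SE 0.12, edgeR adjusted p = 0.484), with 395 and 410 CPM in *sis2Δ* A and B, against 378 and 344 CPM in wild-type A and B. *ARO1*, the enzyme of 5 activities between them, had -0.09, and its strains overlapped. The tryptophan branch genes among the 45 lay between -0.13 for *TRP2*, anthranilate synthase, and 0.12 for *TRP5*, tryptophan synthase. *TRP3*, which encodes the other subunit of anthranilate synthase with a further activity, and *TRP4*, anthranilate phosphoribosyltransferase, were each at -0.02. *TRP1*, of the same branch but not among the 45, lay lower. It had 35.1 and 45.4 CPM in *sis2Δ* A and B, against 51.9 and 59.1 CPM in wild-type A and B. Its log2 fold change was -0.46 (SE 0.14, edgeR adjusted p = 0.0719).

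In each of the 5 threonine genes the strains overlapped, with a median log2 fold change of -0.03 (0.01 with library size alone). *HOM6* (YJR139C), homoserine dehydrogenase, had 424 and 584 CPM in *sis2Δ* A and B, against 580 and 623 CPM in wild-type A and B. Its *sis2Δ* libraries had a log2 ratio of -0.46 to each other, the widest of the 45 genes, and the log2 fold change was -0.25 (SE 0.16, edgeR adjusted p = 0.39). *THR1*, homoserine kinase, was at the other end with 134 and 138 CPM in *sis2Δ* A and B, against 137 and 110 CPM in wild-type A and B. Its log2 fold change was 0.14 (SE 0.12, edgeR adjusted p = 0.529). *HOM3*, aspartate kinase, *HOM2*, aspartic semialdehyde dehydrogenase, and *THR4*, threonine synthase, had log2 fold changes of -0.03, -0.13 and 0.09.

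**Figure D5:**
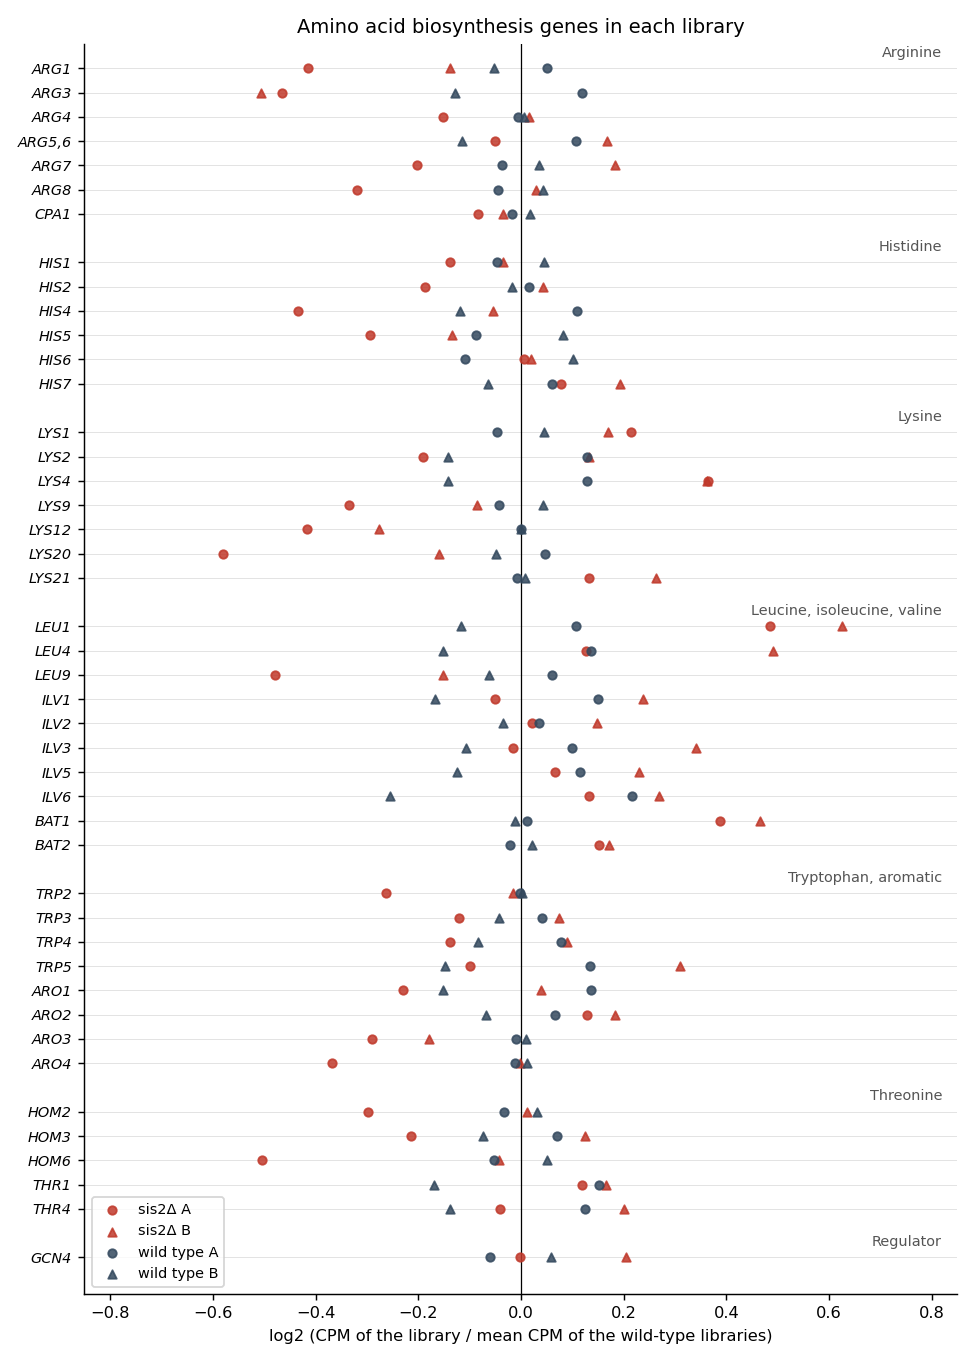
Level of 44 of the 45 genes in each library as the log2 ratio of its CPM to the mean of the wild-type libraries, by pathway; red marks *sis2Δ*, dark blue the wild type, circles library A and triangles library B. The red symbols of *LEU1*, *BAT1* and *LYS4* lie right of both wild-type symbols and those of *ARG3*, *LYS12*, *LYS20* and *LEU9* left of them, while most other genes overlap or are separated by a small margin.

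Genes around these pathways were read from further lists in the same fit. Of 13 genes that control *GCN4* translation or Gcn4 turnover, such as those of the Gcn2 kinase and of eIF2 and eIF2B subunits, 0 had an adjusted p under 0.05 (edgeR), against 6.07% of all tested genes. The median log2 fold change was 0.02. At an unadjusted p under 0.05 there were 2, each higher in *sis2Δ*, against 21.0% of all tested genes. These were *PCL5*, with a log2 fold change of 0.38 (SE 0.12, edgeR adjusted p = 0.0733), and *GCD2*, with 0.35 (SE 0.11, edgeR adjusted p = 0.0896). Of 6 pathway regulators, 0 were called (edgeR) and 2 had an unadjusted p under 0.05, against 21.0% of all tested genes, with a median of 0.24. These 2 regulators, like *PCL5* and *GCD2*, are named here after their values were seen. *ARG81*, a regulator of arginine genes, had 90.8 and 86.0 CPM in *sis2Δ* A and B, against 79.9 and 65.4 CPM in wild-type A and B, and a log2 fold change of 0.28 (SE 0.12, edgeR adjusted p = 0.198). *LEU3* had 111 and 104 CPM in *sis2Δ* A and B, against 95.2 and 82.3 CPM in wild-type A and B, and a log2 fold change of 0.27 (SE 0.11, edgeR adjusted p = 0.178). Of 22 other enzymes of amino acid synthesis, 1 was called (edgeR), against 6.07% of all tested genes. At an unadjusted p under 0.05 there were 7 (31.8%), 5 lower and 2 higher in *sis2Δ*, against 21.0% of all tested genes. The lower ones were *SER1*, *SER3*, *SER33*, *TRP1* and *PRO1*, and the higher ones *GDH1* and *PHA2*. *SER3* had a log2 fold change of -0.63 (SE 0.20, edgeR adjusted p = 0.0827) and *GDH1* one of 0.53 (SE 0.16, edgeR adjusted p = 0.0849). The called gene was *SER1* (YOR184W, chrXV:679357-680544, plus strand), the phosphoserine aminotransferase. It fell to 353 and 445 CPM in *sis2Δ* A and B, against 569 and 633 CPM in wild-type A and B. Its log2 fold change was -0.59 (SE 0.15, edgeR adjusted p = 0.0328), and its adjusted p stayed under 0.05 in all 7 alternatives with a test. The median of these 22 enzymes was 0.02, and their log2 fold changes ran from -0.63 to 0.53.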

How the data were processed

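RNA-seq counts of 2 *sis2Δ* and 2 wild-type cultures were analysed. The authors trimmed reads with cutadapt 3.7 (minimum length 20, quality 20), mapped them to R64 with STAR 2.7.8a, counted them per gene with featureCounts 2.0.1 as reverse-stranded and deposited the raw counts of 6692 genes. The annotation is not given in the sources used here. The authors' table of limma 3.48.0 fold changes and p-values was not used.

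Genes that reached 0.5 CPM in 2 or more libraries were tested in R 4.3.3 with edgeR 4.0.16 (TMM, quasi-likelihood test, Benjamini-Hochberg adjustment over all 5959 genes, call at 0.05). Alternatives were limma-voom (limma 3.58.1), DESeq2 1.42.0, other scalings and filters, the replicate letter as a block, and each library left out (log2 fold change only). On simulated counts for 5923 genes, edgeR's test recovered 50.7% of 71 log2 changes of size 0.5, 94.7% of 75 of size 1 and 100% of 54 of size 2. Each gene was drawn independently with the dispersion of the common trend. Shifts shared by many genes of a library, as between the *sis2Δ* libraries here, were thus not simulated. Library totals were 19158777 and 25399379 in *sis2Δ* A and B, and 28069619 and 19001619 in wild-type A and B; counting floors cover counting error only. Chi-square per degree of freedom between the libraries was 60.3 in *sis2Δ* and 20.4 in the wild type, so libraries of a strain differed by more than counting noise. The authors describe independent cultures.

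The 45 genes and all lists were chosen with earlier results of these data known. All but 1 are named, with values per library for *GCN4*, the highest and lowest log2 fold change of each pathway and the isoenzyme pairs; 1 gene enters the counts, medians and sums but is not reported here by itself or drawn. Genes of other lists are named where called, and *SIS2*, *URA3*, *LEU2*, *MET17* and *HIS3* are named as strain markers. *LEU3*, *ARG81*, *PCL5*, *GCD2*, *TRP1*, *SER3*, *SER33*, *PRO1*, *GDH1* and *PHA2*, not called, were chosen after their values were seen. Sequences and coordinates come from the RefSeq R64 annotation, which held 6008 of the gene identifiers. None of the 45 overlaps another annotated gene, and 684 identifiers outside that annotation could not be checked for overlap.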

Additional observations from a re-analysis of the deposited data

How the results depend on the processing

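Of the 45 genes, 38 were called in none of the 7 alternatives with a test. Median-ratio size factors gave 1 higher gene (*LEU1*), and library size alone and DESeq2 gave 2 each (*LEU1* and *BAT1*). With the replicate letter as a block, 4 were lower (*ARG3*, *LYS12*, *LYS20* and *LEU9*) and 2 higher (*LYS4* and *LEU1*), while calls over all genes grew to 380 lower and 408 higher. The letters are only shared: deviations of same-lettered libraries from their strain means correlated at 0.07 across 5959 genes. Library size alone left 127 lower genes. The sign turned for 5 genes near 0: with library size alone *LYS2* was at 0.027, *TRP3* at 0.030, *TRP4* at 0.029 and *HOM3* at 0.012, and *ARG7* was at -0.013 with limma-voom and -0.008 with the replicate block. With 1 library left out, the sign turned for 19 of the 45, whose log2 fold changes were at most 0.173 in size. The pathway medians moved by less than 1 SD of the *sis2Δ* libraries in the 7 alternatives with a test. That SD ran from 0.11 for histidine to 0.24 for threonine on the log2 scale, so this check could hardly fail. Without *sis2Δ* replicate A the arginine, histidine, lysine, aromatic and threonine medians turned from below to above 0. With 500 bases upstream, TGACTC was found for 33 genes in place of 25. In simulated data with genes drawn independently, 50.7% of log2 changes of size 0.5 were recovered. Smaller changes, the size of most of those here, were not simulated.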

Other observations

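Amino acid uptake and breakdown genes were read from the same fit. Of 5 breakdown genes, 2 were called (edgeR, adjusted p under 0.05), against 6.07% of all tested genes. The list was chosen with earlier results of these data known, so this count is no test of it. Of the 5 log2 fold changes, 3 lay above 0 and 2 below. *CAR2*, the ornithine transaminase of arginine breakdown, rose to 45.7 and 51.1 CPM in *sis2Δ* A and B, against 32.0 and 25.3 CPM in wild-type A and B, a log2 fold change of 0.75 (SE 0.14, edgeR adjusted p = 0.00639). *ARO10*, a decarboxylase that acts in the breakdown of aromatic and branched-chain amino acids, rose to 29.4 and 30.4 CPM in *sis2Δ* A and B, against 19.5 and 20.8 CPM in wild-type A and B, a log2 fold change of 0.57 (SE 0.12, edgeR adjusted p = 0.0174). Both were called in all 7 alternatives with a test, and leaving out each library gave 0.62 to 0.94 for *CAR2* and 0.53 to 0.64 for *ARO10* on the log2 scale. Of 12 amino acid transporters, 0 were called (edgeR), 3 lay below and 1 above the wild type at an unadjusted p under 0.05, against 21.0% of all tested genes in either direction, and the median log2 fold change was -0.02.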
